A study of Mus musculus with 9 samples.

Results

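Microglia are the resident macrophages of the brain, and in brain tissue they are told from neurons by a set of marker genes. Part of the set, such as Spi1, Cd53 and Laptm5, is shared with other macrophages or immune cells. The set covers the transcription factors that give the cells their identity, receptors for purines, chemokines, lipids and antibodies, the adaptors that pass on the receptors' signals, and lysosomal enzymes. In the dLGN (dorsal lateral geniculate nucleus), which relays signals from the retina to the visual cortex, microglia of young mice are known to engulf synaptic material in a manner that depends on activity.

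The genes described here are 32 microglia marker genes, chosen by name, and all 32 were found among the 19703 genes that have counts in both sets of deposited tables. The data are counts from RNA sequencing of microdissected dLGN of male and female C57BL/6J mice without a genetic change. All mice were reared in the dark from postnatal day 20 to postnatal day 27, and light was then given for 0, 1 or 8 h, so the controls (0 h) also carry the dark rearing. Each light time has 3 libraries, which the labels count as independent samples from 3 mice.

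Several properties of the libraries bear on all results. Total counts ran from 5.73 M in 0 h replicate 1 to 22.6 M in 8 h replicate 1. Xist, the RNA of the inactive X chromosome of females, and Ddx3y, a Y-linked gene, were both above 10 CPM (counts scaled to a common library total) in 7 of the 9 libraries, whereas a single mouse normally expresses only 1 of them. The exceptions were 0 h replicate 3, with 0.334 CPM of Xist, and 8 h replicate 2, with 0.0533 CPM of Ddx3y. In dissected tissue, fewer microglia and less marker RNA per microglial cell cannot be told apart.

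Promoters of 24 of the 32 genes could be read from RefSeq (assembly GRCm38.p6), as 30 windows from 250 bases before to 50 bases after a start site. The 8 others are Spi1, P2ry6, Gpr34, Csf1r, Tyrobp, Tlr7, Tmem119 and Selplg. The letters GAGGAAGT, a core that PU.1 (the product of the marker Spi1) is known to bind, were found on either strand in 5 of these 30 windows (16.7%) and in 3.20% of 32851 windows of the same length. The shorter GAGGAA, which lies within that core, was in 17 of the 30 windows (56.7%) and in 28.3% of all windows. For comparison, TATAAA was in 5 of the 30 (16.7%) and in 13.6% of all, TGANTCA (the AP-1 motif) in 2 (6.67%) and in 7.81% of all, and the cyclic AMP response element TGACGTCA in 0 and in 1.79% of all. A match of letters is a description of the window and not a binding site. The 5 windows with the full core are printed 5′ to 3′ on the strand of the gene, with the core, or its reverse complement, in capitals, because they show which markers share it and where. In the order printed they lie at chr6:65144681-65144980 (minus strand), chr3:106790100-106790399 (minus), chr15:78596797-78597096 (plus), chr1:87620062-87620361 (plus) and chr3:95526536-95526835 (plus).
Hpgds: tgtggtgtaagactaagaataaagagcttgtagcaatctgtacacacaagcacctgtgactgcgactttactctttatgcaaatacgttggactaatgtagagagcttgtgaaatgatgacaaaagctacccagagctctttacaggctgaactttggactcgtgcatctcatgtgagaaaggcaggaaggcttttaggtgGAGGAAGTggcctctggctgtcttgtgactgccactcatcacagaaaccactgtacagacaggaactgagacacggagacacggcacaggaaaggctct
Cd53: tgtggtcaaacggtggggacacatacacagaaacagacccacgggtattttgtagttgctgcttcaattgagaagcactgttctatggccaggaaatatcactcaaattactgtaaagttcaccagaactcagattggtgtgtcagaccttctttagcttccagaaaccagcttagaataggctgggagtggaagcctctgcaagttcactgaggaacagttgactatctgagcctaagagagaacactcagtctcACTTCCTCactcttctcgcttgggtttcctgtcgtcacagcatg
Cyth4: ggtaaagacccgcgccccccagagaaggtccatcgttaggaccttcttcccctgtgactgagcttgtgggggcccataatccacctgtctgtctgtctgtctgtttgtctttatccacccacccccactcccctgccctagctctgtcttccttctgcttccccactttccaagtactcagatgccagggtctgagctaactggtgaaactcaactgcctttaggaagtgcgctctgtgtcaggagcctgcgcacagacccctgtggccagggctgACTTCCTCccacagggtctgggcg
Inpp5d: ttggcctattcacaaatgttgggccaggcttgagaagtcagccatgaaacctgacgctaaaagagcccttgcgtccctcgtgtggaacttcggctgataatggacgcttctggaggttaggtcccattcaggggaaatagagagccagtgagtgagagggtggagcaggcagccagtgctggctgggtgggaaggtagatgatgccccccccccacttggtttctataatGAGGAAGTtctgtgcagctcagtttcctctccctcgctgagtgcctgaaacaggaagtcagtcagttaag
Ctss: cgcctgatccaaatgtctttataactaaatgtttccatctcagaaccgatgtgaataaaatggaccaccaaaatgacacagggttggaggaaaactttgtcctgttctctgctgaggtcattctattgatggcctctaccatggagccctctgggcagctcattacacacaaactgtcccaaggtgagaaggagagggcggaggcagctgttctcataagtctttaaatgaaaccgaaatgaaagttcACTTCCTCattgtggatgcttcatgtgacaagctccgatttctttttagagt
The core began 49 bases before the start site in Hpgds, 20 before it in Inpp5d and 2 before it in Ctss. In Cd53 and Cyth4 it lay past the start site, at bases 7 and 27. Hpgds, Cd53 and Cyth4 were among the 10 of 32 markers whose 8 h libraries were all lower than the 0 h libraries, described further on. Inpp5d and Ctss were not. Of all genes tested, 7.89% had that separation, and a link between the core and the levels was not tested.

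The markers were all measurable, with 248 to 11307 reads per gene over the 9 libraries. Per kilobase of exon, Csf1r, the receptor for colony stimulating factor 1 and interleukin 34 on which microglial survival depends, had the highest level at 0 h, at 19.3 ± 1.42 CPM per kb (SD, n = 3). Ctss, the lysosomal protease cathepsin S, stood at 19.3 ± 1.69 CPM per kb, within the spread of Csf1r. Cx3cr1, the receptor for the neuronal chemokine fractalkine, followed at 12.4 ± 0.521, above P2ry12, a receptor for ADP that guides microglial processes, at 8.13 ± 0.888 CPM per kb. Laptm5, Tmem119, Tyrobp and Fcrls, at 7.97, 7.57, 7.53 and 7.39 CPM per kb, lay within 1 SD of P2ry12 or of each other, so their order is not resolved. The lowest levels per length were those of Tlr7, at 0.534 ± 0.0780, and Runx1, at 0.294 ± 0.0559 CPM per kb.

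**Figure D1:**
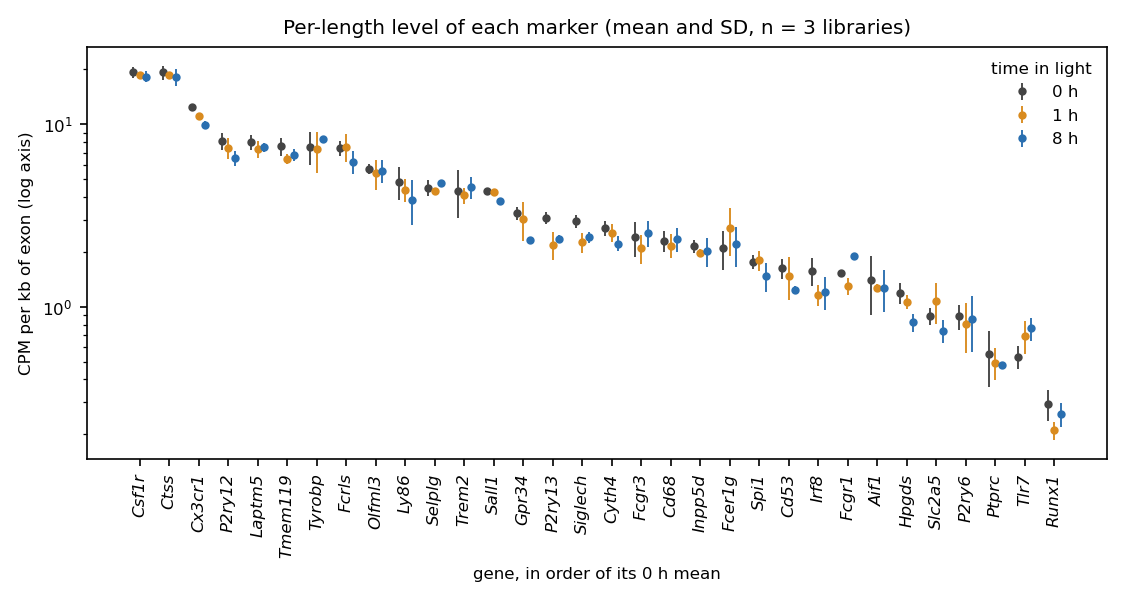
Level of each of the 32 marker genes per kb of exon (vertical log axis, CPM per kb), ordered by the 0 h mean, with points for the mean and bars for the SD of 3 libraries at 0, 1 and 8 h. Csf1r and Ctss lead at 19.3 CPM per kb each, Runx1 is lowest at 0.294, and at most genes the bars of the 3 light times overlap.

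Added together, the 32 markers were lower in every 8 h library than in any 0 h library. Their summed level was 413, 387 and 378 CPM in the 0 h libraries, 379, 359 and 361 CPM in the 1 h libraries and 363, 357 and 339 CPM in the 8 h libraries, in the order of the replicates. Of the 1 h libraries, replicate 1 lay within the 0 h range. The mean sums were 392 ± 18.4, 366 ± 11.0 and 353 ± 12.3 CPM in time order (SD over the 3 libraries), and the ratio of 8 h to 0 h was 0.899. Csf1r alone gave 21.8% of the sum and Cx3cr1 11.3%, averaged over the libraries. The shallowest library, 0 h replicate 1, held the highest of the 9 values for 14 of the 32 genes, and 8 h replicate 3 held the lowest for 10.

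**Figure D2:**
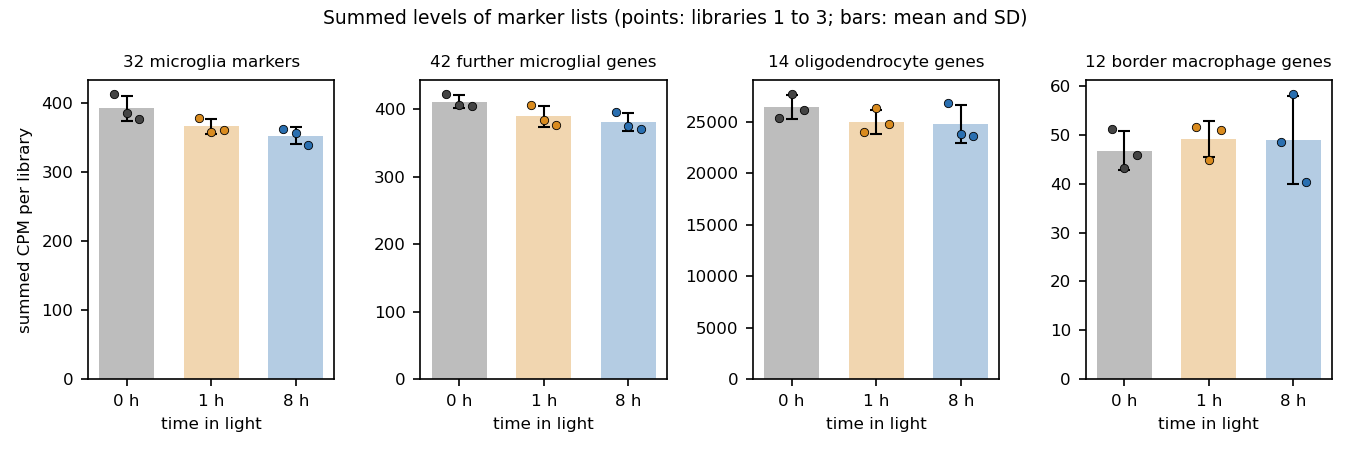
Summed CPM per library of 4 gene lists (vertical axes, each from 0) at 0, 1 and 8 h of light, with points for the 3 libraries of each time and bars for their mean and SD. The sum of the 32 microglia markers is 339 to 363 CPM at 8 h and 378 to 413 CPM at 0 h, and of the 4 lists only this one and the 42 further microglial genes have 8 h libraries that all lie below the 0 h libraries. The endothelial list and the meningeal and choroid list, with similar ratios of 8 h to 0 h, are not drawn.

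No marker passed the test across all genes in any comparison (edgeR's quasi-likelihood test, Benjamini-Hochberg adjusted p under 0.05). Between 1 h and 0 h, 0 of the 32 were called, where 2 of 15164 genes, or 0.0132%, were called. Between 8 h and 0 h, 0 of the 32 were called, against 0.587% of 15330 genes. For 8 h against 1 h the count was again 0 of 32, against 0.603% of 15586 genes. At these background shares fewer than 1 call would fall among 32 genes, so the counts of 0 do not set the markers apart. DESeq2 gave 0 calls among the markers in each comparison as well.

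Counts at an unadjusted p under 0.05 leaned toward lower levels. At 1 h, 2 markers were lower than at 0 h (6.25%, with 1.31% of all genes) and 0 were higher (1.9% of all genes). At 8 h against 0 h, 6 were lower (18.8%, with 4.32% of all genes) and 1 was higher (3.12%, with 5.9% of all genes). Of the 8 h values, 4 were lower than at 1 h (12.5%, with 4.09% of all genes) and 1 was higher (3.12%, with 4.81% of all genes). Together these are 2, 7 and 5 genes, and DESeq2 gave 1, 3 and 1. The 7 became 4 without 8 h replicate 2 or without 8 h replicate 3. The 2 became 0 without 1 h replicate 1 and 1 without 0 h replicate 1 or 0 h replicate 2. The 5 became 1 without 8 h replicate 2, 2 without 1 h replicate 1 or 8 h replicate 3, and 3 without 0 h replicate 2, 1 h replicate 3 or 8 h replicate 1.

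Separation of the libraries showed the same lean. For 6 markers every 1 h library was below every 0 h library (4.39% of all genes) and for 0 markers every one was above (4.23%). For 10 markers every 8 h library was below every 0 h library (7.89% of all genes), and for 2 every one was above (8.4%). Between 8 h and 1 h the 3 libraries of each time were apart for 4 markers in the lower direction (6.97% of all genes) and for 2 in the higher (8.34%). Both comparisons with 0 h use the same 3 control libraries, so their values are not independent.

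The median log2 fold change of the markers was −0.11 at 1 h against 0 h, with 27 of 32 below 0, where all genes had a median of 0.00 with 49.1% below 0. It was −0.14 at 8 h against 0 h, with 24 of 32 below 0, where all genes had −0.00 with 51.3% below 0. For 8 h against 1 h it was 0.01, with 15 of 32 below 0. The median at 1 h rested in part on 0 h replicate 1, without which it was −0.03 with 21 of 32 below 0, while that at 8 h was then −0.10 with 22 below 0. Without the single-sex libraries 0 h replicate 3 and 8 h replicate 2 in turn, the median at 8 h against 0 h was −0.17 and −0.15.

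**Figure D3:**
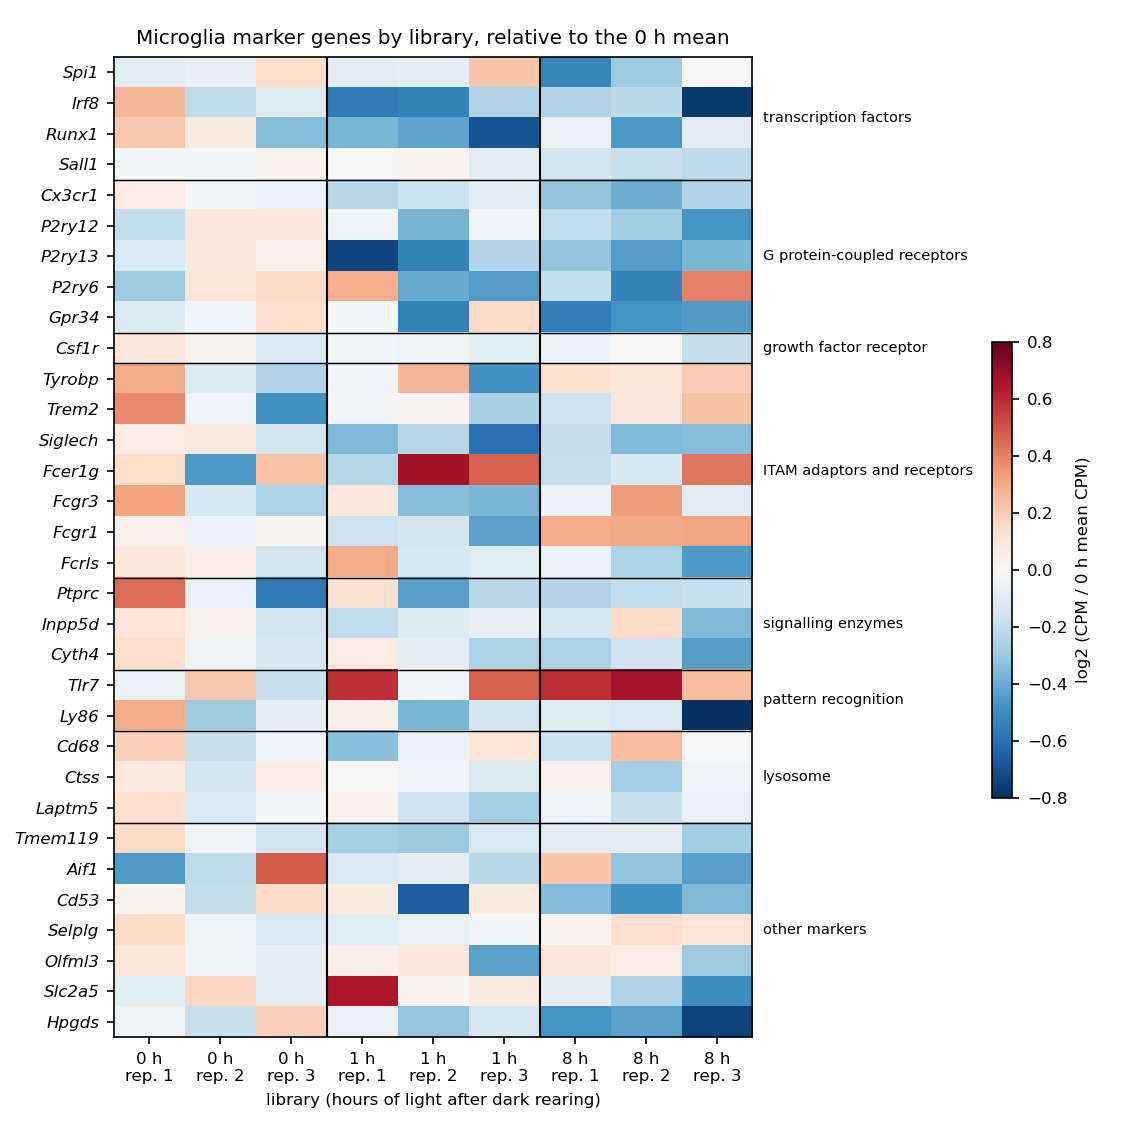
Each of the 32 marker genes (rows, grouped by role) in each of the 9 libraries (columns), coloured by the log2 ratio of its CPM to its own 0 h mean, from blue (lower) to red (higher) with the scale ending at 0.8 in both directions. The 5 G protein-coupled receptor genes are mostly blue at 8 h, Fcgr1 is red in all 3 of the 8 h libraries, and 0 h replicate 1 holds the highest of the 9 values for 14 genes.

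The G protein-coupled receptors, through which microglia sense fractalkine, nucleotides and lysophosphatidylserine, held 4 of the 6 genes that were lower at 8 h at an unadjusted p under 0.05. All 5 had log2 fold changes below 0 at both times, with a median of −0.15 at 1 h and −0.32 at 8 h, and none passed the test. Cx3cr1 was at 48.6, 46.1 and 44.7 CPM at 0 h, 39.9, 41.3 and 43.8 CPM at 1 h, and 37.4, 35.4 and 39.4 CPM at 8 h. The 3 light times did not overlap, with 0 h highest and 8 h lowest. Its log2 fold change was −0.31 (SE 0.07) at 8 h against 0 h, with an unadjusted p of 0.00187 and an adjusted p of 0.124 by edgeR's quasi-likelihood test, the lowest adjusted p of any marker in that comparison. It was −0.15 (SE 0.08, adjusted p = 1.00) at 1 h against 0 h and −0.16 (SE 0.07, adjusted p = 0.550) between 8 h and 1 h. Over all alternatives tried, the adjusted p at 8 h against 0 h ran from 0.0864 to 0.512.

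P2ry12 was at 18.35, 22.4 and 22.2 CPM at 0 h, 20.5, 16.2 and 20.7 CPM at 1 h, and 18.30, 17.3 and 15.1 CPM at 8 h. The 8 h libraries were apart from the 0 h libraries only by the small gap between 18.30 and 18.35 CPM, while the 1 h libraries overlapped both. The change at 8 h was −0.32 on the log2 scale (SE 0.11), with an unadjusted p of 0.0139 and an adjusted p of 0.311 in edgeR. P2ry13, its neighbour on chromosome 3 and likewise a receptor for ADP, was at 7.14, 8.22 and 7.95 CPM at 0 h, 4.67, 5.34 and 6.59 CPM at 1 h, and 6.24, 5.71 and 6.02 CPM at 8 h. Here both light times lay wholly below the 0 h libraries. The log2 fold change was −0.48 (SE 0.17, unadjusted p = 0.0152) at 1 h and −0.39 (SE 0.13, unadjusted p = 0.0149) at 8 h, with adjusted p-values of 1.00 and 0.321 in edgeR. At 1 h this was the largest change of any marker in size.

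Gpr34, a receptor for lysophosphatidylserine on the X chromosome, was at 7.99, 8.49 and 9.42 CPM at 0 h, 8.55, 5.93 and 9.66 CPM at 1 h, and 5.92, 6.19 and 6.31 CPM at 8 h. All 8 h libraries were below all 0 h libraries, and at 1 h replicate 2 stood with the 8 h libraries. The log2 fold change was −0.50 (SE 0.13, unadjusted p = 0.00310, adjusted p = 0.154) at 8 h against 0 h and −0.39 (SE 0.17, unadjusted p = 0.0398, adjusted p = 0.526) between 8 h and 1 h, by edgeR. Leaving out 1 h replicate 3 moved the latter value to −0.21, and leaving out 1 h replicate 2 moved it to −0.58. P2ry6, a receptor for UDP linked to phagocytosis, lay between 1.28 and 2.47 CPM with overlapping groups, and its log2 fold changes were −0.24 and −0.10 at 1 and 8 h.

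P2ry12 and P2ry13 lie within the gene Med12l and Gpr34 within Cask, each on the other strand. Med12l and Cask share 9, 0 and 0 exonic bases with P2ry12, P2ry13 and Gpr34, respectively. The sources used here do not say how the counts treated strand, so reads from the host genes cannot be told apart from those of the receptors where they overlap. Med12l was at 108 to 140 CPM and differed by 0.11 (SE 0.08) and 0.01 (SE 0.07) on the log2 scale at 1 and 8 h. Cask was at 120 to 138 CPM and differed by −0.12 (SE 0.06, adjusted p = 0.511) at 8 h in edgeR.

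**Figure D4:**
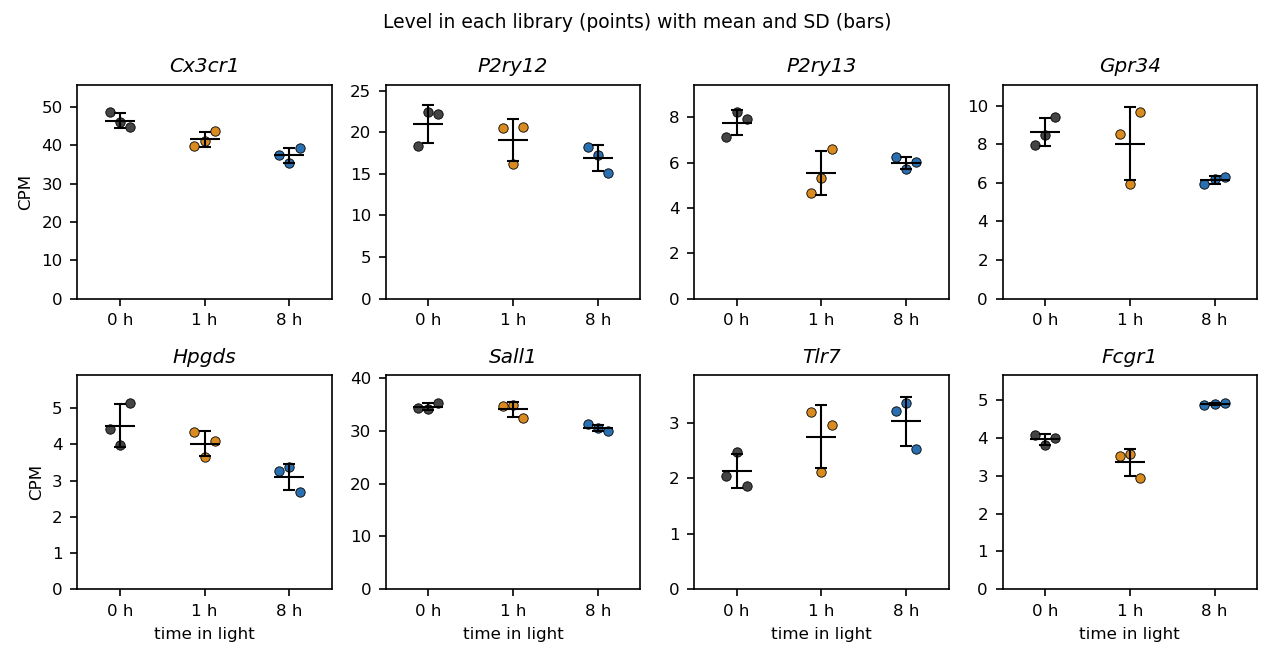
CPM in each library (points) with mean and SD (bars) at 0, 1 and 8 h for 8 markers, each panel on a linear axis from 0. Cx3cr1 steps down from 44.7 to 48.6 CPM at 0 h to 35.4 to 39.4 CPM at 8 h, whereas Tlr7 and Fcgr1 are higher in every 8 h library than in any 0 h library.

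Of the 4 lineage transcription factors, all had log2 fold changes below 0 at 8 h and 3 at 1 h, and none passed the test. Sall1, which holds microglia in their resident state, was at 34.3, 34.2 and 35.3 CPM at 0 h, 34.8, 35.04 and 32.6 CPM at 1 h, and 31.3, 30.5 and 30.0 CPM at 8 h. Its libraries agreed closely within each time, and the 8 h libraries were below all others. The change was small, −0.18 (SE 0.07, unadjusted p = 0.0306, adjusted p = 0.420) at 8 h against 0 h and −0.16 (SE 0.07, unadjusted p = 0.0394, adjusted p = 0.526) against 1 h in edgeR. Spi1, which encodes the macrophage master regulator PU.1, was at 2.38, 2.42 and 2.81 CPM at 0 h, 2.39, 2.41 and 2.95 CPM at 1 h, and 1.76, 2.08 and 2.52 CPM at 8 h. Its groups overlapped, with log2 fold changes of 0.03 (SE 0.22) at 1 h and −0.27 (SE 0.23, adjusted p = 0.746) at 8 h, the latter −0.15 without 8 h replicate 1 and −0.41 without 8 h replicate 3.

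Irf8, a partner of PU.1, lay between 3.15 and 6.46 CPM, and both light times were wholly below the 0 h libraries, with log2 fold changes of −0.39 (SE 0.20) and −0.34 (SE 0.21). Runx1, a factor of early blood and microglial development, was at 2.55, 2.31 and 1.74 CPM at 0 h, 1.71, 1.64 and 1.36 CPM at 1 h, and 2.12, 1.60 and 2.06 CPM at 8 h. Its 1 h libraries were all below the 0 h libraries, and the log2 fold change of −0.46 (SE 0.27, unadjusted p = 0.110, adjusted p = 1.00 in edgeR) was the second largest in size at that time. Irf8 and Runx1 each overlap another annotated gene, Gm20388 on the same strand with 0 shared exonic bases and Gm26626 on the other strand with 106.

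Csf1r differed little. It was at 88.5, 84.4 and 76.5 CPM at 0 h, 81.8, 80.8 and 77.6 CPM at 1 h, and 80.6, 82.9 and 72.8 CPM at 8 h, and the 3 groups overlapped. The log2 fold change was −0.05 (SE 0.08) at 1 h and −0.07 (SE 0.08, 95% interval −0.24 to 0.10) at 8 h.

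Immunoreceptor tyrosine-based activation motif (ITAM) signalling pairs antibody, lectin and lipid receptors with the adaptors DAP12 and the Fc receptor common gamma chain. Of the 7 markers grouped under this role, 5 had values below 0 at 1 h, with a median of −0.04, and 5 had values above 0 at 8 h against 0 h, with a median of 0.12. The group counts Fcrls as an Fc receptor-like gene, at 0.02 and −0.23 at 1 and 8 h. Whether Fcrls pairs with either adaptor was not tested. None passed the test, and a difference from the other roles was not tested. The signs of Trem2 and Fcer1g at 8 h turned with a library left out. A further list of 14 tested genes that act in ITAM signalling outside the markers had a median of −0.16 at 8 h, with 9 of 14 below 0. Fcgr1, the high-affinity receptor for immunoglobulin G, was at 4.08, 3.82 and 4.01 CPM at 0 h, 3.53, 3.58 and 2.95 CPM at 1 h, and 4.88, 4.91 and 4.93 CPM at 8 h. The 3 light times did not overlap, with 1 h lowest and 8 h highest. Between 8 h and 1 h its log2 fold change of 0.55 (SE 0.15) was the largest of any marker, with an unadjusted p of 0.00356 and an adjusted p of 0.199 in edgeR. Against 0 h it was −0.24 (SE 0.20) at 1 h (−0.15 without 1 h replicate 3) and 0.32 (SE 0.16, unadjusted p = 0.0723, adjusted p = 0.539) at 8 h.

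Siglech, a sialic acid binding lectin that signals through DAP12, was at 8.84, 8.87 and 7.61 CPM at 0 h, 6.61, 7.22 and 5.57 CPM at 1 h, and 7.41, 6.61 and 6.65 CPM at 8 h. Both light times were wholly below 0 h, with log2 fold changes of −0.38 (SE 0.16, unadjusted p = 0.0348, adjusted p = 1.00) and −0.28 (SE 0.13, unadjusted p = 0.0613, adjusted p = 0.514) in edgeR. Tyrobp, which encodes DAP12, was at 5.27, 3.98 and 3.61 CPM at 0 h, 4.22, 5.17 and 3.07 CPM at 1 h, and 4.65, 4.59 and 4.93 CPM at 8 h. The groups overlapped, and the log2 fold changes were −0.00 (SE 0.25) and 0.19 (SE 0.18).

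Trem2, the lipid-sensing receptor that pairs with DAP12, was at 6.46, 4.89 and 3.54 CPM at 0 h, 4.90, 4.99 and 4.15 CPM at 1 h, and 4.43, 5.28 and 5.85 CPM at 8 h. Its 0 h libraries spanned the values of both light times, and the log2 fold changes were −0.04 (SE 0.23) and 0.12 (SE 0.22). Fcer1g, which encodes the common gamma chain, was at 2.21, 1.45 and 2.34 CPM at 0 h, 1.71, 3.17 and 2.78 CPM at 1 h, and 1.76, 1.81 and 2.70 CPM at 8 h. Its groups overlapped, and the change at 1 h of 0.43 (SE 0.30, adjusted p = 1.00 in edgeR) was the third largest in size at that time. It was 0.20 without 0 h replicate 2 and 0.25 without 1 h replicate 2. Fcgr3, a low-affinity Fc receptor, and Fcrls, an Fc receptor-like gene, had overlapping groups and differed at 8 h by 0.14 (SE 0.20) and −0.23 (SE 0.13) on the log2 scale.

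Tlr7, the endosomal sensor of single-stranded RNA, was the only marker with a higher level at 8 h than at 0 h at an unadjusted p under 0.05. It was at 2.04, 2.47 and 1.87 CPM at 0 h, 3.19, 2.11 and 2.95 CPM at 1 h, and 3.21, 3.36 and 2.52 CPM at 8 h. The 8 h libraries were above the 0 h libraries by the gap between 2.47 and 2.52 CPM. The log2 fold change was 0.50 (SE 0.22, unadjusted p = 0.0493, adjusted p = 0.487 in edgeR), and it rested on 12 to 71 reads per library. Tlr7 is X-linked, and its highest value was in 8 h replicate 2 and its lowest in 0 h replicate 3, the libraries with the most Xist (852 CPM) and the least. Without these libraries in turn the log2 fold change was 0.42 and 0.39, and the part of Xist in the result was not tested. Ly86, the partner of the Toll-like receptor homologue CD180, lay between 2.64 and 5.95 CPM with overlapping groups and a log2 fold change of −0.27 (SE 0.24) at 8 h.

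None of the signalling enzymes and lysosomal genes passed the test. Ptprc, which encodes the phosphatase CD45, Inpp5d, the lipid phosphatase SHIP1, and Cyth4, an exchange factor for ARF proteins, had log2 fold changes of −0.13 (SE 0.25), −0.08 (SE 0.15) and −0.26 (SE 0.14) at 8 h. Among these, the 8 h libraries of Cyth4 lay wholly below the 0 h libraries, at 5.79 to 6.99 against 7.15 to 8.67 CPM. Ctss was at 23.6 to 27.7 CPM at 0 h and 21.8 to 27.02 CPM at 8 h, with overlap and a log2 fold change of −0.07 (SE 0.11). Cd68, a lysosomal glycoprotein often read as a sign of phagocytic activity, had log2 fold changes of −0.04 (SE 0.21) and 0.06 (SE 0.19) at 1 and 8 h. For Laptm5, a lysosomal membrane protein of blood-derived cells, they were −0.12 (SE 0.12) and −0.07 (SE 0.10).

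Among the membrane, cytoskeletal, secreted and metabolic markers, 6 of 7 had log2 fold changes below 0 at each time. Hpgds, a prostaglandin D synthase, was at 4.42, 3.98 and 5.14 CPM at 0 h, 4.33, 3.64 and 4.09 CPM at 1 h, and 3.25, 3.36 and 2.70 CPM at 8 h. The 8 h libraries were below all other libraries. The log2 fold change of −0.53 (SE 0.19, unadjusted p = 0.0202, adjusted p = 0.359 in edgeR) at 8 h against 0 h was the largest in size of any marker. Slc2a5, a fructose transporter, was at 2.72, 3.28 and 2.74 CPM at 0 h, 4.56, 2.93 and 3.07 CPM at 1 h, and 2.76, 2.45 and 2.06 CPM at 8 h. The 8 h libraries were below the 1 h libraries, by −0.50 on the log2 scale (SE 0.22, unadjusted p = 0.0454, adjusted p = 0.545 in edgeR), and both overlapped 0 h. Replicate 1 held the highest 1 h value of Slc2a5, and without it the difference was −0.30.

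Tmem119, a surface protein used to tell microglia from incoming macrophages, was at 18.2, 16.1 and 14.6 CPM at 0 h, 13.3 to 15.001 CPM at 1 h, and 15.3, 15.3 and 13.4 CPM at 8 h. Its groups overlapped through 0 h replicate 3, and the log2 fold changes were −0.21 (SE 0.12) and −0.13 (SE 0.11), the former also −0.13 without 0 h replicate 1. Aif1, which encodes the actin-binding protein IBA1, was at 1.36, 1.61 and 2.60 CPM at 0 h, 1.71, 1.76 and 1.59 CPM at 1 h, and 2.17, 1.49 and 1.38 CPM at 8 h. It rested on 8 to 48 reads per library, the groups overlapped, and the log2 fold changes were −0.19 (SE 0.29) and −0.18 (SE 0.30). Cd53, a tetraspanin of immune cells, was lower in every 8 h library (3.25 to 3.57 CPM) than in any 0 h library (3.98 to 5.08 CPM), at −0.38 on the log2 scale (SE 0.18, adjusted p = 0.509). Selplg, an adhesion ligand for selectins, and Olfml3, a secreted olfactomedin protein, differed at 8 h by 0.11 (SE 0.11) and −0.01 (SE 0.14) on the log2 scale.

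**Figure D5:**
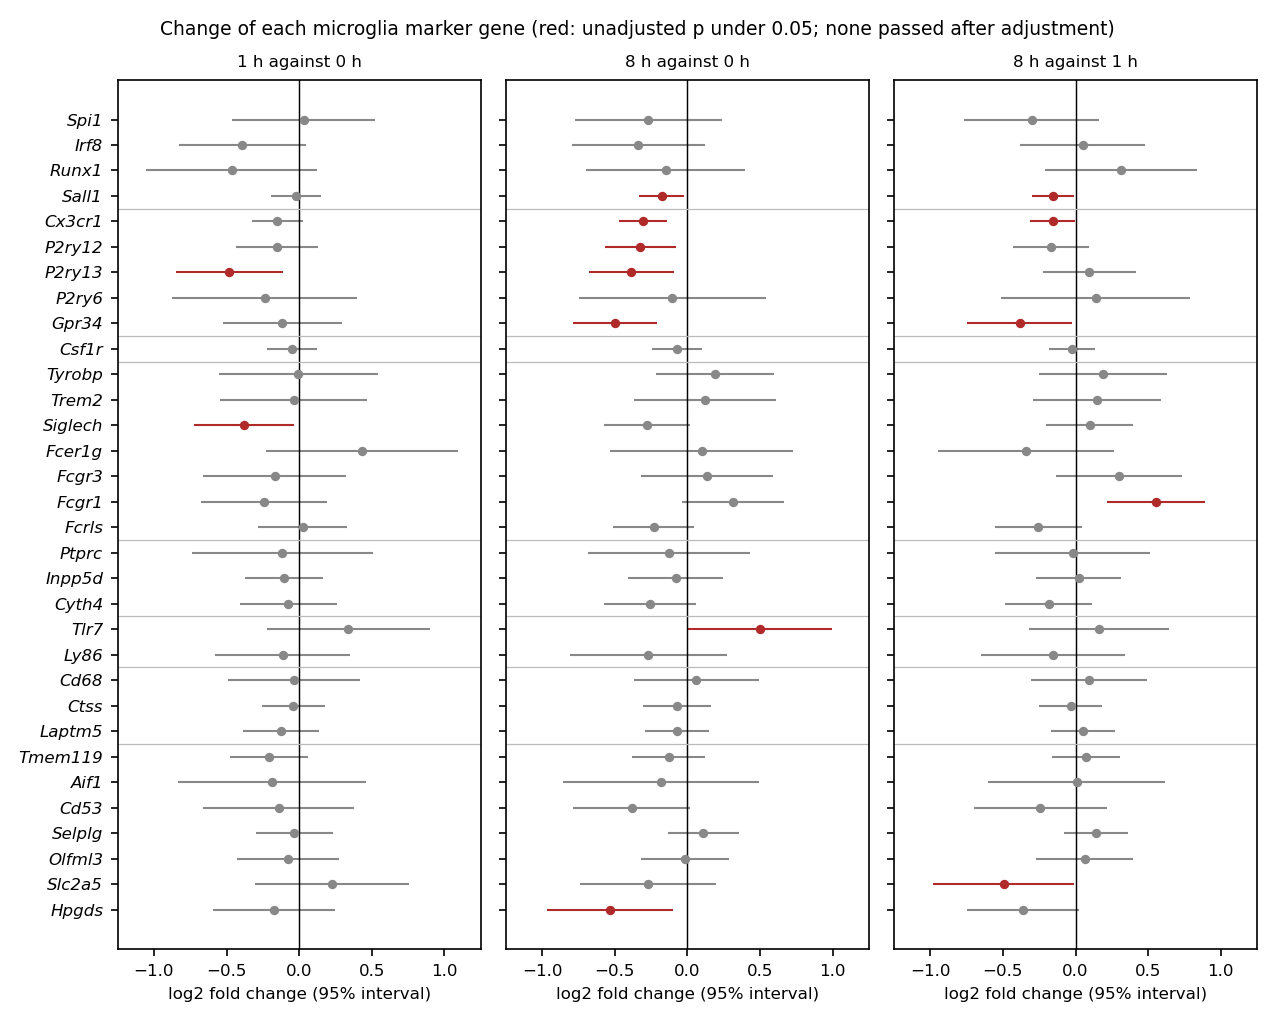
Log2 fold change of each of the 32 markers (points) with its 95% interval (bars) for 1 h against 0 h, 8 h against 0 h and 8 h against 1 h, in the order of the roles, with red for an unadjusted p under 0.05. Of 32 intervals, 7 exclude 0 at 8 h against 0 h, 6 of them on the lower side and Tlr7 at 0.50 on the higher, and none passed after adjustment.

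A second list of 43 microglial genes that are not among the 32, of which 42 were found and 41 tested, gave 0 calls at each time. Their summed level was 405 to 422 CPM at 0 h, 377 to 407 CPM at 1 h and 371 to 396 CPM at 8 h, so that the 8 h libraries again lay below the 0 h libraries. The median log2 fold change was −0.08 at 1 h, with 27 of 41 below 0, and −0.07 at 8 h, with 23 of 41 below 0. At an unadjusted p under 0.05 in edgeR there were 1 at 1 h and 4 at 8 h. Among all genes tested, 1.9% were higher and 1.31% lower at that cutoff at 1 h, and 5.9% and 4.32% at 8 h. The same shares apply to the counts of the lists that follow. Itgb5, an integrin subunit, was at 38.0 ± 2.36 CPM at 0 h and 35.2 ± 1.17 CPM in the 8 h libraries.

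Lists of genes that act with the markers held few calls. Cx3cl1, which encodes the ligand of Cx3cr1 and is made by neurons, was at 543, 496 and 579 CPM at 0 h, 512, 546 and 532 CPM at 1 h, and 664, 675 and 640 CPM at 8 h. Every 8 h library was above every earlier library. Cx3cl1 rose between 1 h and 8 h by 0.32 on the log2 scale (SE 0.06, adjusted p = 0.0447 in edgeR), the only 1 of 10 tested ligands to pass. Against 0 h the value at 8 h was 0.29 (SE 0.07, adjusted p = 0.102). In that comparison 7 of the 10 ligands were below 0, with a median of −0.05. Chosen after their values were seen, Tgfb2, a transforming growth factor, was at −0.66 (SE 0.14, adjusted p = 0.0835 in edgeR) and Cd200, a neuronal ligand of a microglial inhibitory receptor, at −0.28 (SE 0.08, adjusted p = 0.224). The call of Cx3cl1 was lost in 9 of 17 alternatives, among them leaving out 0 h replicate 1 or any library of 1 h or 8 h, with adjusted p-values from 0.000690 to 0.236.

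Prkcd, a protein kinase C listed with ITAM signalling that other brain cells also express, rose between 1 h and 8 h by 0.34 (SE 0.07, adjusted p = 0.0409 in edgeR), to 1537 ± 109 from 1212 ± 69.8 CPM (SD, n = 3 each). It was the only 1 of 14 tested genes of that list to pass, and the call was lost in 11 of 17 alternatives, among them leaving out any library but 0 h replicate 2 or 1 h replicate 2, with adjusted p-values from 0.000230 to 0.203. Prkcd gave 91.7% of the summed level of that list, and which cells its RNA came from was not tested. For purine signalling outside the markers, 15 of 17 genes were tested and 0 passed in any comparison, with 1 at 1 h and 4 at 8 h at an unadjusted p under 0.05 in edgeR. Of 19 cytokine and inflammasome genes 11 were found and 5 tested, with 0 calls and 1 at an unadjusted p under 0.05 at each time, and their sum was 15.1 to 18.8 CPM at 0 h and 15.5 to 16.6 CPM at 8 h. Of 22 genes of the damage-associated state of microglia 20 were found, and 0 of the 15 tested at 1 h and of the 16 tested at 8 h passed, with 1 and 2 at an unadjusted p under 0.05 and medians of −0.03 and −0.02. Apoe gave 46.5% of the summed level of this list, at 761 CPM at 0 h, above the 392 CPM of all 32 markers. Itgax, Clec7a, Lgals3 and Ch25h had too few reads for the test. Which cells the RNA of this list came from was not tested. For proliferation genes 0 of 10 passed at both times, with 2 and 0 at an unadjusted p under 0.05.

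Markers of other cells were measured beside the microglial ones. Blood leukocyte markers were near the floor of detection: 5 of 16 were found, none had enough reads for the test, and their sum was 0.430 to 0.935 CPM at 0 h, 0.170 to 0.456 CPM at 1 h and 0.115 to 0.271 CPM at 8 h. The 5 were Ccr2, Plac8, S100a8, S100a9 and Cd79a. The border macrophage list had 12 of 12 found and 8 tested with 0 calls and 1 at an unadjusted p under 0.05 at each time, and its sum overlapped between times at 43.3 to 51.2, 44.8 to 51.5 and 40.3 to 58.3 CPM. Stab1 alone gave 43.9% of that sum, and which cells its RNA came from was not tested. Red blood cell genes, 5 of 5, summed to 101 to 164 CPM at 0 h, 156 to 173 CPM at 1 h and 121 to 185 CPM at 8 h. All 5 had log2 fold changes above 0 at both times, with medians of 0.39 at 1 h and 0.26 at 8 h, and none passed the test in edgeR, with 2 and 0 at an unadjusted p under 0.05.

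Of all genes tested, 1.9% were higher and 1.31% lower at 1 h at an unadjusted p under 0.05 in edgeR. At 8 h the shares were 5.9% and 4.32%. The oligodendrocyte list, with 14 of 14 tested, 0 calls and 4 genes at an unadjusted p under 0.05 at each time, had a median log2 fold change of −0.11 at 1 h and at 8 h, with 13 of 14 below 0 at each time. Its sum was 25396 to 27676 CPM at 0 h, 23993 to 26295 CPM at 1 h and 23587 to 26873 CPM at 8 h, with overlap. The endothelial list, with 12 of 12 tested, 0 calls and 3 genes at an unadjusted p under 0.05 at 8 h, had a median of −0.14 at 8 h and a sum of 237 to 257 CPM at 0 h and 208 to 245 CPM at 8 h. The meningeal and choroid list had a median of −0.18 at 8 h over 10 tested genes, with 0 calls and 0 at an unadjusted p under 0.05. For oligodendrocyte precursors and mural cells the medians at 8 h were 0.02 over 8 genes and −0.02 over 9, each with 1 gene at an unadjusted p under 0.05. The neuron list had a median of 0.08 at 8 h, with 11 of 14 above 0 and 3 at an unadjusted p under 0.05. The astrocyte list had 0.03, with 9 of 12 above 0 and 3 at an unadjusted p under 0.05. Of these lists only the astrocyte list held a call at 8 h, Fgfr3, which rose by 0.36 (SE 0.06, adjusted p = 0.0274 in edgeR) and lost that call in 8 of 14 alternatives, among them leaving out any of the 6 libraries. At 8 h over 0 h, the ratio of mean sums was 0.906 for endothelial and 0.883 for meningeal and choroid genes. The 32 markers had 0.899. The ratio was 0.937 for oligodendrocytes, 0.979 for their precursors, 1.02 for mural cells, 1.04 for neurons and 1.02 for astrocytes. The part of these other cells in the microglial values was not tested.

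Over the 9 libraries, the markers varied together only in part. The Pearson correlation of each marker's log2 CPM with the log2 of the summed markers had a median of 0.51 and ran from −0.39 to 0.88, where the marker itself is part of the sum. Over 14204 genes with a mean of at least 1 CPM the median was −0.01, and over 39 of the further microglial genes it was 0.26. The non-members most like the sum were Rab3il1 (r = 0.97), C330011M18Rik (0.93), Pygb (0.93), Aim2 (0.93), Tnfrsf19 (0.93) and Tek (0.92), an endothelial gene. They were followed by G630016G05Rik, 4930402H24Rik, Ago1 and LOC102635699, at 0.91 to 0.92. These 9 points share the light times and the depth of the libraries.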

How the data were processed

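RNA of the dLGN was sequenced in 9 libraries, 3 each after 0, 1 and 8 h of light, from total RNA depleted of ribosomal RNA. The authors' deposited tables give whole-number read counts per gene and library, which were used as deposited. The deposited tables also hold a density per gene (a signal: count over exonic length and library), a ratio per gene (light time to 0 h) and p-values, which were read and not used for the results. The submitters' processing notes name BWA, the build GRCm38 (mm10) and edgeR 3.14.0. The sources used here do not give the counting program, its strand setting or the annotation. Only genes with at least 4 reads over the libraries of a comparison are in the tables.

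Tests used the quasi-likelihood method of edgeR 4.0.16 (R 4.3.3; glmQLFit and glmQLFTest with package defaults) with TMM scaling, filterByExpr (minimum count 10) and Benjamini-Hochberg adjustment over all genes tested, two-sided, at a threshold of 0.05. The 1 h and 8 h libraries were each fitted with the 0 h libraries; 8 h against 1 h was fitted on all 9 libraries over genes in both sets of tables. SE is the log2 fold change over the square root of F. CPM use TMM-scaled totals of the 9 libraries, and levels per kb divide CPM by exonic length. The tests were first tried on simulated counts with changes of 1 and 2 on the log2 scale. They recovered 75.5 to 84.5% of the changes of 1 and 96 to 97.9% of those of 2. False calls numbered 20 at 1 h against 0 h, 14 at 8 h against 0 h and 11 between 8 h and 1 h. The simulation changed 200 genes in each comparison, so the share of false calls was above the threshold of 0.05 in each. The adjusted p-values of Cx3cl1 and Prkcd between 8 h and 1 h lay close to that threshold. Smaller changes, such as those of the markers, were not simulated. At 3 reads the floor of detection is 0.524 CPM in the shallowest and 0.133 CPM in the deepest library, which covers counting error only. p-values measure the spread between libraries, and libraries holding RNA of both sexes may not each be a single mouse. Alternatives were DESeq2 1.42.0, other scaling, no filter, a replicate block, libraries left out and another set of libraries in the fit; 1 more, the newer option of glmQLFit, was chosen after seeing the data.

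All markers are named; full values are given for those with an unadjusted p under 0.05 in any comparison, the 3 largest changes in each, and 8 defining markers. The members and lists were chosen with earlier results of these data known. Genes not in the tables were not analysed here.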

Additional observations from a re-analysis of the deposited data

Results flagged for a closer look

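For 3 markers every 1 h library lay on one side of the 0 h mean and every 8 h library on the other. The share of all genes with this pattern was not counted, so the 3 do not set the markers apart. Fcgr1 was below the mean at 1 h and above it at 8 h, with a difference between 8 h and 1 h of 0.55 on the log2 scale (SE 0.15). Its adjusted p of 0.199 in edgeR's quasi-likelihood test missed the threshold. Selplg had the same pattern with a difference of 0.14 (SE 0.10, adjusted p = 0.749). Slc2a5 was above the mean at 1 h and below it at 8 h, with a difference of −0.50 (SE 0.22, adjusted p = 0.545). Its 1 h replicate 2, at 2.93 CPM, was barely above the 0 h mean of 2.91 CPM. With a library left out, the difference ran from 0.46 to 0.62 for Fcgr1 and from −0.61 to −0.30 for Slc2a5, the last without 1 h replicate 1.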

How the results depend on the processing

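The count of markers called remained 0 in all 3 comparisons under all alternatives that were run. The older option of glmQLFit is the package default and so was not run separately. Leaving out a library in turn, the median log2 fold change ranged from −0.15 to −0.029 at 1 h against 0 h, from −0.17 to −0.10 at 8 h against 0 h and from −0.039 to 0.040 between 8 h and 1 h, and the mean sum of the markers from 382 to 400 CPM at 0 h, 360 to 370 CPM at 1 h and 348 to 360 CPM at 8 h. With only the 27 markers that no other annotated gene overlaps, the sums were 347, 328 and 318 CPM by construction of fewer genes, a ratio of 0.914 between 8 h and 0 h. Without the libraries highest in the cortical marker Neurod6 the medians were −0.15, −0.15 and −0.00. With the replicate block they were −0.12, −0.16 and 0.00, with 2, 6 and 4 genes at an unadjusted p under 0.05. Correlations of same-numbered libraries ran from −0.21 to 0.19, and those of differently numbered libraries from −0.23 to 0.27. The 3 pairs of replicate 3 were all above 0, at 0.18, 0.14 and 0.19, while those of replicates 1 and 2 had both signs. Whether same-numbered libraries share more than a number was not tested. The block also ended the calls of Cx3cl1 (adjusted p = 0.0770) and Prkcd (0.0691) between 8 h and 1 h. In a fit of only the 6 libraries of 1 h and 8 h, 1 marker and not 5 had an unadjusted p under 0.05.

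Signs turned in some settings for markers with small changes that passed no test, and the cause was not tested. For Tyrobp at 1 h against 0 h the value was 0.0017 without the filter on low counts and 0.022 with the newer option of glmQLFit. For Fcer1g at 8 h against 0 h it was −0.14 without the Neurod6 libraries. For Aif1 between 8 h and 1 h it was −0.0073 with total counts only and −0.0094 with the replicate block. With a library left out, values at 1 h against 0 h ranged from −0.22 to 0.19 for Tyrobp, −0.24 to 0.14 for Trem2, −0.085 to 0.11 for Spi1, −0.335 to 0.14 for Aif1, −0.29 to 0.075 for Gpr34, −0.045 to 0.013 for Sall1 and −0.082 to 0.026 for Cx3cl1. At 8 h against 0 h they ranged from −0.14 to 0.29 for Fcer1g, −0.083 to 0.29 for Trem2 and −0.42 to 0.15 for Aif1. Between 8 h and 1 h they ranged from −0.23 to 0.13 for Aif1, −0.0078 to 0.27 for Tlr7, −0.010 to 0.41 for Tyrobp, −0.012 to 0.20 for Siglech and −0.063 to 0.031 for Csf1r. Depth limits the low markers most: 8 reads of Aif1 in the shallowest library leave a wide counting error.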
